A study of Mus musculus with 13 samples.

Results

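The genes described here are 40 mouse genes that act in DNA replication and mitosis, picked by name from the deposited expression table, in which all 40 were found among the 12880 listed genes. They fall into 16 genes of DNA replication (9 for licensing and the replicative helicase, 4 for polymerase, primase and the sliding clamp, 3 for deoxynucleotide supply) and 24 cyclin and mitosis genes. RNA-seq had been done on 13 libraries of limb buds in 4 groups, the limb buds of 3 or 4 embryos per group according to the table's header. At E11.5, about the stage when limb cartilage begins to form, there were 3 controls with the Sox9 genotype Sox9fl/- and 4 mutants with Sox9-/-, which the labels call Sox9null. The E12.5 groups held 3 controls with Sox9fl/fl and 3 mutants with Sox9fl/flPrx1CreER, called Sox9cKO. The E11.5 controls thus carried 1 null Sox9 allele, whereas both E12.5 groups carried floxed alleles and the mutants also had a Cre recombinase driven by a Prx1 promoter, which is active in limb mesenchyme. The time of Cre induction and the deleted part of Sox9 were not given in the sources used here. For these genes the question was whether loss of SOX9, the transcription factor that directs cells to the cartilage fate, went with a different level of the genes a cell needs in order to divide.

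A dividing cell first loads the MCM helicase onto origins with the help of CDC6 and CDT1, then copies its DNA with polymerases held by the PCNA clamp, using deoxynucleotides made by ribonucleotide reductase and thymidylate synthase. Entry into mitosis follows from cyclin A and cyclin B with CDK1, and Aurora and Polo kinases, the spindle checkpoint and spindle motors then separate the chromosomes. Many of these genes are transcribed only in part of the cell cycle, the replication genes mostly through E2F factors and the mitotic genes through the MuvB complex at CHR elements, so their summed RNA in a tissue follows the share of cells in cycle. The early limb bud is a rapidly dividing mesenchyme, and cells that condense to form cartilage slow their division. In bulk tissue, fewer dividing cells and less RNA per dividing cell cannot be told apart.

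Values are normalized RPKM, reads scaled by gene length and library size, and differences are of log2(RPKM + 1). The sources used here give no library depth, so counting error could not be computed. Of 10 limb mesenchyme markers 9 were in the table, with a summed level of 359 to 417 RPKM and none at 0. Sox9 was 35.8 to 49.3 RPKM in the E11.5 controls and 20.6 to 25.7 in Sox9null, and 35.2 to 37.5 in the E12.5 controls and 28.7 to 35.1 in Sox9cKO. By clustering on all genes, control libraries 1 and 3 grouped with Sox9null 3 and 4 at E11.5 (a set of 4), and control 2 grouped with Sox9null 1 and 2 (a set of 3), with correlations across genes of 0.979 to 0.989 within the sets and 0.938 to 0.966 between them. No label says what the sets stand for.

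Promoter sequence is shown first because replication and mitosis genes are known to carry different promoter elements. RefSeq promoters (build GRCm38.p6) were matched for 35 members, and Mcm4, Gins2, Ccna2, Aurkb and Tpx2 had no entry. The 250 bases before each start were searched on both strands for an E2F core (TTCCCGC or TTGGCGC or TTCGCGC or TTGCCGC), a CHR (TTTGAA or TTCGAA) and a CCAAT box (CCAAT). Matches may overlap, and each is counted. The 5 sequences below are of a helicase gene with E2F cores and few other matches, of the gene with the largest age difference in controls, and of 3 genes that the results turn on. They are read along the strand of the gene, 5′ to 3′, in lower case with motif matches in capitals, and only bases outside annotated exons are shown. Mcm6 is at chr1:128359706-128359955 on the minus strand, Rrm2 at chr12:24708004-24708240 on the plus strand, Mcm2 at chr6:88898781-88899030, Top2a at chr11:99024190-99024439 and Mki67 at chr7:135716380-135716629, each of these 3 on the minus strand.
Mcm6: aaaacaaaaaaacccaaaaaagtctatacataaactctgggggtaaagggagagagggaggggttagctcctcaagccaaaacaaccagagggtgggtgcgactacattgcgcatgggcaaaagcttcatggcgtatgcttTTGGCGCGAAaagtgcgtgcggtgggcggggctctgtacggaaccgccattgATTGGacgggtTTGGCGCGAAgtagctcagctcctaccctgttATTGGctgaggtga
Rrm2: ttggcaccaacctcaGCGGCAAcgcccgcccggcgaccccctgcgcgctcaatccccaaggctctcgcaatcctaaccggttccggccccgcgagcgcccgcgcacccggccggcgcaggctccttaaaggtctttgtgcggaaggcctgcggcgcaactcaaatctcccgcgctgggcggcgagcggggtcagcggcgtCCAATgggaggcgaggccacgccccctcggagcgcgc
Mcm2: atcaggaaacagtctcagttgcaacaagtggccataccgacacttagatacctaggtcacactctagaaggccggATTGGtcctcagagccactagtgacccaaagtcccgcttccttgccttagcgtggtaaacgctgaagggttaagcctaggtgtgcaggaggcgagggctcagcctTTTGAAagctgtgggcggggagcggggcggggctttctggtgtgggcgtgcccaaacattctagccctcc
Top2a: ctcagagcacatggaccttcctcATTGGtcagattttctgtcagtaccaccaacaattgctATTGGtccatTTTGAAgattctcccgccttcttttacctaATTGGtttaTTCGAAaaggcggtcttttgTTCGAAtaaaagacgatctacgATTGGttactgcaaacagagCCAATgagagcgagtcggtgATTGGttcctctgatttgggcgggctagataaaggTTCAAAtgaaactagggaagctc
Mki67: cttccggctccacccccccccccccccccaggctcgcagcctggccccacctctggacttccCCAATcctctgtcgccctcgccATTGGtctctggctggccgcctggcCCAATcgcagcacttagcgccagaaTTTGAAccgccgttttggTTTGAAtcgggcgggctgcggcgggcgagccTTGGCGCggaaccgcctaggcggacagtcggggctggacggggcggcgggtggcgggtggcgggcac

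Mcm6 held 4 E2F cores in 2 overlapping pairs and no CHR, Rrm2 held 1 E2F core far from its start, and Mcm2 held 1 CHR and no E2F core. Top2a held 4 CHR and 6 CCAAT boxes, and Mki67 held 1 E2F core, 2 CHR and 3 CCAAT boxes. Of the 14 replication promoters 8 held an E2F core (57.1%), against 3 of 21 cyclin and mitosis promoters (14.3%), 14.8% of 8663 promoters of other genes in the table and 7.97% of all 27025 promoters. The CHR showed the other order, with 9 of 21 cyclin and mitosis promoters (42.9%), 2 of 14 replication promoters (14.3%), 11.3% of other table genes and 17.4% of all promoters. A CCAAT box was present in 71.4% of the replication promoters and 81% of the cyclin and mitosis promoters, against 36.7% of other table genes and 34.5% of all promoters. These are matches of letters and were not tested.

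**Figure D1:**
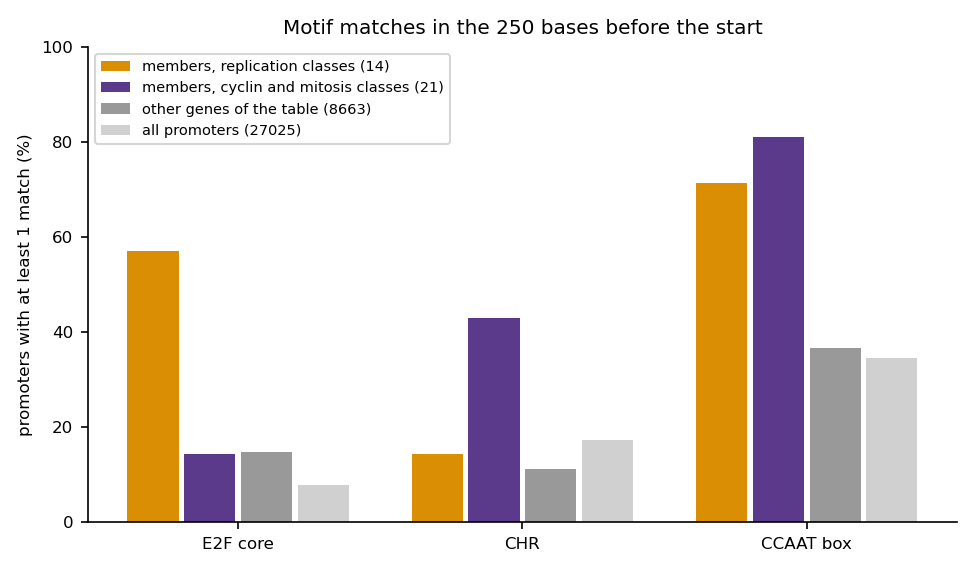
Share of promoters (y axis, %) with at least 1 match to each motif (x axis) in the 250 bases before the start, for the 14 replication and 21 cyclin and mitosis promoters, 8663 promoters of other genes in the table and all 27025 promoters. E2F cores were found in 57.1% of the replication promoters and CHR matches in 42.9% of the cyclin and mitosis promoters.

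All 40 members were well above the table's floor. Mean levels over the 13 libraries ran from 15.8 RPKM for Tyms, thymidylate synthase, to 75.5 RPKM for Mcm6. The filter on low values removed no gene, so every member entered each test. Spread between libraries was wider at E11.5 than at E12.5. The median coefficient of variation over the members was 10.6% in the E11.5 controls and 11% in Sox9null, against 2.66% in the E12.5 controls and 2.96% in Sox9cKO.

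Among the licensing and helicase genes, the MCM subunits had the highest levels. Mcm6 (chr1:128331590-128359664, GRCm38, minus strand) encodes a subunit of the helicase ring. Its E11.5 controls had 86.7, 71.2 and 72.9 RPKM and its Sox9null libraries 71.7, 70.9, 87.3 and 84.6 RPKM. At E12.5 the Mcm6 levels were 73.7, 75.6 and 72.7 RPKM in controls and 70.6, 71.1 and 72.6 RPKM in Sox9cKO. The E11.5 groups covered the same range, and at E12.5 each Sox9cKO value lay just under each control value.

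Mcm2 (chr6:88883474-88898780), another helicase subunit and a marker of licensed cells, had 77.7, 68.3 and 72.5 RPKM in the E11.5 controls and 66.9, 66.5, 76.7 and 70.8 RPKM in Sox9null. Its E12.5 levels were 60.1, 61.1 and 58.6 RPKM in controls and 62.5, 61.7 and 62.5 RPKM in Sox9cKO. Every E12.5 value of Mcm2 was below every E11.5 value.

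Mcm3 (chr1:20802968-20820312) had 74, 66.2 and 70.1 RPKM in the E11.5 controls, 65.6, 64.7, 72.5 and 70.6 RPKM in Sox9null, 59.7, 62.2 and 58.1 RPKM in the E12.5 controls and 61.4, 62.9 and 62.3 RPKM in Sox9cKO. Mcm4 (chr16:15623897-15637400) had 65.5, 58.9 and 62.8 RPKM, then 57.8, 60.1, 64.3 and 62.1 RPKM, 54, 54.5 and 55.7 RPKM, and 55.8, 55.8 and 57.5 RPKM in the same order of groups. Both genes were lower in each E12.5 library than in each E11.5 library. Mcm7 (chr5:138164583-138172422) had 45, 36 and 43.6 RPKM in the E11.5 controls, 37.2, 38.9, 45.8 and 42.2 RPKM in Sox9null, 32.8, 33.5 and 32.9 RPKM in the E12.5 controls and 33.8, 33.3 and 34 RPKM in Sox9cKO. The Mcm7 values at E12.5 spanned little more than 1 RPKM and lay below all those at E11.5. Mcm7 shares exonic bases with Ap4m1 and Cops6 on the other strand and with Mir25 and Mir93 on its own, and the sources do not say whether counting used strand, so its level is uncertain to that extent.

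Rfc4, a subunit of the clamp loader (chr16:23113943-23127737), had the highest level of the polymerase and clamp genes. Its values were 39.4, 30.9 and 38.1 RPKM in the E11.5 controls, 30.6, 31, 40.9 and 40.4 RPKM in Sox9null, 34.7, 35 and 34.9 RPKM in the E12.5 controls and 36.1, 35.2 and 36.4 RPKM in Sox9cKO. The 7 E11.5 values formed a low group of 3 and a high group of 4, with the E12.5 values between them. Rfc4 overlaps exonic bases of Eif4a2 on the other strand.

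Pcna, the sliding clamp (chr2:132249162-132253314), varied most. Its E11.5 controls had 31.9, 18.2 and 29.2 RPKM, and its Sox9null libraries 18.7, 19, 31.3 and 25.7 RPKM. At E12.5 the Pcna levels were 18, 22.3 and 17 RPKM in controls and 24.3, 23.6 and 25.7 RPKM in Sox9cKO. The Sox9cKO libraries all lay above the E12.5 controls, while the E11.5 groups overlapped fully. Reads of Pcna may be shared with its annotated pseudogenes Pcna-ps1 and Pcna-ps2.

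Of the genes that supply deoxynucleotides, Rrm1, the large subunit of ribonucleotide reductase (chr7:102441695-102469771), had 72.7, 62 and 68 RPKM in the E11.5 controls, 66.9, 59.8, 72.1 and 71.2 RPKM in Sox9null, 60.8, 63.9 and 61.3 RPKM in the E12.5 controls and 57.1, 65.9 and 60 RPKM in Sox9cKO. The 4 groups of Rrm1 overlapped. Rrm2, the small subunit, whose amount rises in S phase (chr12:24708241-24714146), had 74.7, 50.9 and 69.4 RPKM in the E11.5 controls and 50.5, 51.3, 75.4 and 71.1 RPKM in Sox9null. Its E12.5 values were 46.4, 47.3 and 40.9 RPKM in controls and 50.7, 51.4 and 55.7 RPKM in Sox9cKO. The E12.5 controls were the lowest group of Rrm2, with no value reaching the lowest of another group.

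Ccna2, cyclin A2, which acts in S phase and at the entry into mitosis (chr3:36564865-36572150), had the highest level of the cyclins. It had 62.4, 51.8 and 60 RPKM in the E11.5 controls, 50.4, 51.3, 64.1 and 60.6 RPKM in Sox9null, 51.3, 53.3 and 52.7 RPKM in the E12.5 controls and 53.7, 54.1 and 55.8 RPKM in Sox9cKO. Each Sox9cKO value of Ccna2 lay above each E12.5 control value. Ccna2 shares exonic bases with Exosc9 on the other strand.

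Plk1, the Polo kinase that drives mitotic entry and spindle assembly (chr7:122159439-122169873, plus strand), had 49.7, 46.6 and 45.8 RPKM in the E11.5 controls and 47.1, 49, 47.7 and 44.3 RPKM in Sox9null. At E12.5 it had 38.1, 42.3 and 39.1 RPKM in controls and 40.7, 42.5 and 42.3 RPKM in Sox9cKO. All 6 E12.5 values of Plk1 lay below all 7 E11.5 values. An antisense gene, Gm44985, overlaps its exonic bases.

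Cdc20, the activator of the ubiquitin ligase that starts anaphase (chr4:118432901-118437352), had 73.8, 55.8 and 69.6 RPKM in the E11.5 controls, 54.6, 54.7, 74.3 and 68.6 RPKM in Sox9null, 53.3, 55.1 and 53.4 RPKM in the E12.5 controls and 57, 58.2 and 58.3 RPKM in Sox9cKO. Its E11.5 libraries again split into a low 3 and a high 4, and the Sox9cKO values lay above the E12.5 controls. Cdc20 overlaps exonic bases of Elovl1 on the other strand. Tpx2, which nucleates spindle microtubules and activates Aurora A (chr2:152847964-152895321), had 52.3, 43.5 and 51.3 RPKM, then 43.1, 43.9, 51.5 and 48.8 RPKM in the E11.5 groups, and 44.6, 45.4 and 45.1 RPKM, then 46.5, 47.4 and 49 RPKM in the E12.5 groups. Tpx2 showed the same split at E11.5 and the same order at E12.5.

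Top2a, the topoisomerase that untangles sister chromatids (chr11:98992943-99024189), had 64.6, 60.8 and 71.1 RPKM in the E11.5 controls and 61.3, 59.7, 63.8 and 63 RPKM in Sox9null. Its E12.5 values were 50.5, 53.6 and 53.5 RPKM in controls and 54.4, 54.4 and 57.7 RPKM in Sox9cKO. Top2a was lowest in the E12.5 controls, then in Sox9cKO, and higher in each E11.5 library. Mki67, the protein coating mitotic chromosomes and the common marker of cycling cells (chr7:135689784-135716361), had 49.5, 61 and 51.9 RPKM in the E11.5 controls, 59.9, 55.8, 45.2 and 49.9 RPKM in Sox9null, 44.5, 46.6 and 48.1 RPKM in the E12.5 controls and 47.2, 47.3 and 49.6 RPKM in Sox9cKO. Its high values at E11.5 were control 2 and Sox9null 1 and 2, the libraries in which most other members were low.

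**Figure D2:**
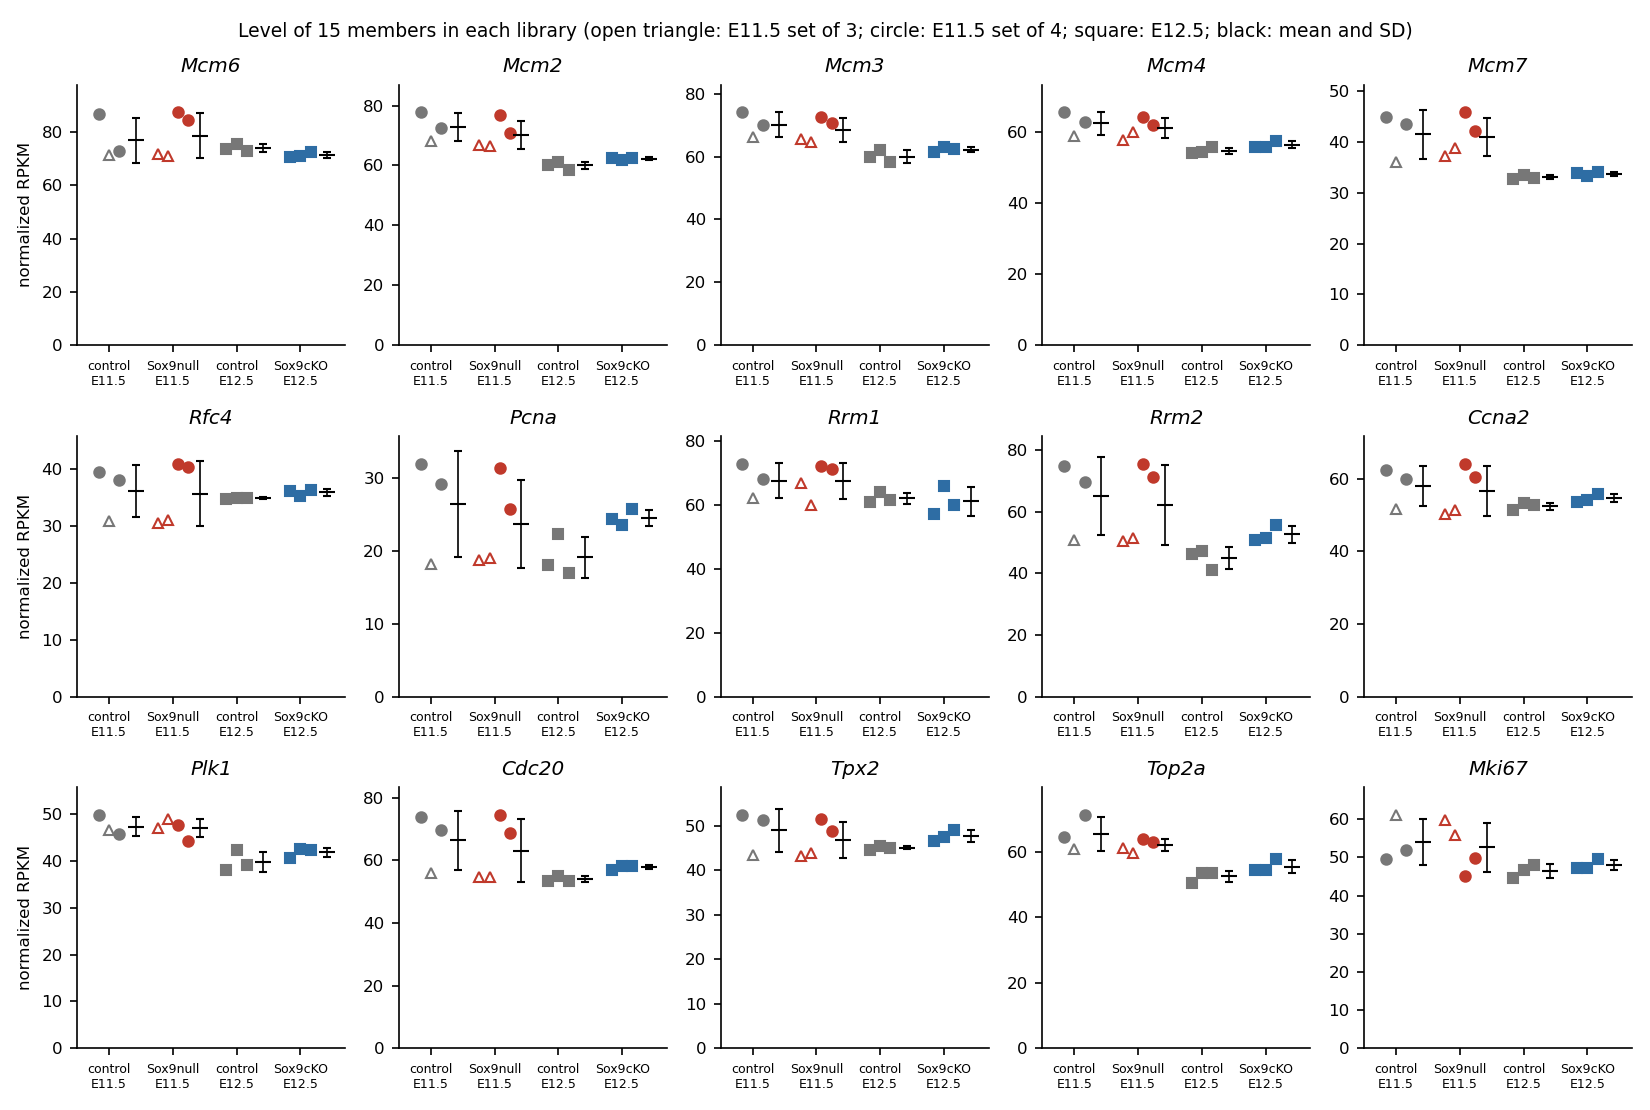
Normalized RPKM (y axes, from 0) of 15 members in each library by group (x axis). Open triangles are E11.5 libraries of the set of 3, circles those of the set of 4, squares E12.5 libraries, and black bars the mean and SD. Pcna and Rrm2 show the widest split at E11.5, and Mki67 has its triangles on top.

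The split of the E11.5 libraries ran through most members. In 35 of the 40, each value of the set of 3 lay below each value of the set of 4, as it did for 41% of all genes. Mki67 and Cenpf, a kinetochore and centromere protein, had the set of 3 on top (16.3% of all genes), and Pola1, Plk1 and Cenpe overlapped (42.7% of all genes). The median difference between the sets was -0.24 in controls and -0.25 in Sox9null, against -0.10 and -0.11 over all genes. Since the sets were found by clustering these libraries on all genes, this is a description without a test.

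The difference between the sets varied with transcript length. Mki67 and Cenpf have the longest annotated transcripts of the members, 10061 and 11130 bases, followed by Cenpe, a kinetochore motor, with 7910 bases. Their differences were 0.26, 0.22 and 0.07, but the next longest, Mad2l1 with 7557 bases and Rrm1 with 5475, had -0.30 and -0.17. Pcna, with 1518 bases, had -0.63, and Rfc4, the shortest with 1279 bases, had -0.35. Across the 40 members Spearman's rho between length and set difference was 0.529, and across 12715 genes it was 0.448, while GC content gave -0.138 and 0.0583. These points share the same 7 libraries, and genes are not independent replicates.

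**Figure D3:**
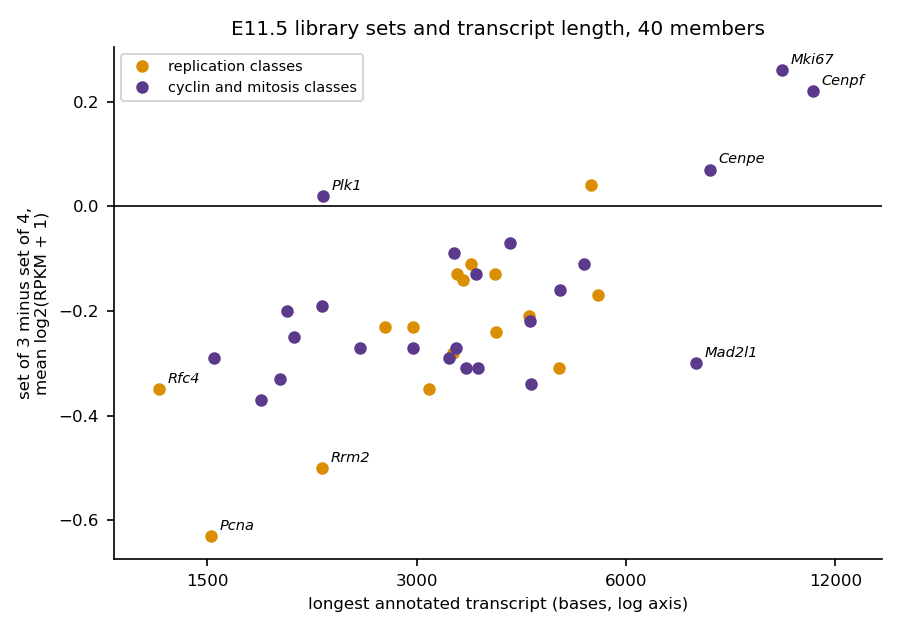
Difference of mean log2(RPKM + 1) between the E11.5 set of 3 and set of 4 (y axis) against the length of the longest annotated transcript (x axis, log scale) for the 40 members. Pcna is lowest at -0.63 and Mki67 highest at 0.26.

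Sox9null against control at E11.5 asked whether the division genes differed where SOX9 was missing as cartilage begins to form. The values of the 2 groups lay close together throughout. None of the 40 members passed limma at an adjusted p under 0.05, where the background over all genes was 0.0543%, and 0 had an unadjusted p under 0.05 (2.82% of all genes). The 40 differences lay between -0.15 for Pcna and 0.04 for Tyms, with a median of -0.03 against 0.01 for all genes, and 7 members were above 0 (56.8% of all genes).

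Across the role classes at E11.5, the helicase and licensing genes had a median of -0.02, the deoxynucleotide genes -0.00, the cyclins with Cdk1 -0.03 and the spindle motors and kinetochore genes -0.05. No member had groups that did not overlap, in a comparison where 1.41% of all genes did so upward and 1.06% downward. The 95% intervals of the members ran from -0.58 to 0.29, with a median half-width of 0.19. For Mki67 the difference was -0.04 (interval -0.24 to 0.16, limma adjusted p = 1), for Top2a -0.08 (-0.20 to 0.05) and for Mcm2 -0.05 (-0.19 to 0.08).

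Within each library set the median difference between Sox9null and control was near 0. In the set of 4 the median difference was -0.00, with 20 members above and 20 below 0. Over all genes 62.3% lay above 0 there, with a median of 0.03. In the set of 3, which holds only 1 control, it was 0.00, with 24 members above and 16 below. Over all genes 58.5% lay above 0 in that set, with a median of 0.02. Pcna had -0.10 within the set of 4 and 0.05 within the set of 3. In the same groups the summed cartilage markers (12 of 13 listed symbols in the table) were 152 to 214 RPKM in controls and 94.6 to 118 in Sox9null. The erythroid markers (13 of 14) were 865 to 967 and 898 to 1550 RPKM. Of the cartilage markers 1 was at 0 in a Sox9null library, and no erythroid marker was at 0. The 9 measured limb mesenchyme markers all lay below 0 in Sox9null against control, with a median of -0.05.

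Sox9cKO against control at E12.5 asked the same where cartilage is differentiating. No member passed the test, but the values leaned to one side. None of the 40 had an adjusted p under 0.05 (0.194% of all genes, 0.0543% higher and 0.14% lower), and 1 had an unadjusted p under 0.05 (5.41% of all genes). That member was Ect2, a regulator of cytokinesis singled out here after its values were seen, with 27.2, 27.6 and 28.6 RPKM in controls and 29.1, 30 and 31.2 RPKM in Sox9cKO. Its difference was 0.11 (SE 0.0477, interval 0.01 to 0.21, limma adjusted p = 0.848). The fit takes 1 spread per gene over all 13 libraries. The members spread more at E11.5, so the E12.5 intervals and p-values do not measure the E12.5 spread alone. With only the E12.5 groups in the fit 0 members were called as well (0.202% of all genes).

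Of the 40 members 36 lay above 0 at E12.5, where 56.8% of all genes did. The members were read in the same libraries and are not independent replicates. The median difference was 0.06 against 0.01 for all genes. For 19 members each Sox9cKO library exceeded each control, against a background of 11.51%, and for 2 members, Mcm6 and Ube2c, each was lower (8.5%). Of the 19, 6 were replication genes (Mcm2, Mcm4, Gins2, Pcna, Rfc4 and Rrm2) and 13 were cyclin and mitosis genes, which were Ccna2, Ccnb2, Aurka, Aurkb, Cdc20, Bub1, Kif11, Kif23, Cenpe, Cenpf, Tpx2, Ect2 and Top2a. All 8 kinetochore, motor and midzone genes, all 5 cyclin and Cdk1 genes and all 4 mitotic kinase and passenger genes were above 0, with medians of 0.09, 0.07 and 0.07. The median was 0.08 over the 24 cyclin and mitosis genes and 0.04 over the 16 replication genes.

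The largest difference at E12.5 was that of Pcna, with means of 19.1 ± 2.83 RPKM (SD, n = 3) in controls and 24.5 ± 1.11 (SD, n = 3) in Sox9cKO, a log2 difference of 0.35 with an interval of -0.12 to 0.82 (limma adjusted p = 1). Rrm2 followed with 44.9 ± 3.48 and 52.6 ± 2.70 RPKM, a difference of 0.23 (interval -0.14 to 0.59). The lowest was that of Ube2c, a ubiquitin-conjugating enzyme of the anaphase machinery, at -0.13 (interval -0.29 to 0.03). Ube2c shares exonic bases with the muscle gene Tnnc2 on the other strand, and the muscle markers summed to 165 to 200 RPKM in controls and 120 to 173 in Sox9cKO. The part of Tnnc2 reads in the Ube2c level was not tested.

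The E12.5 groups also differed in makeup and sex. Summed erythroid markers were 693 to 735 RPKM in controls and 929 to 1150 in Sox9cKO, with no marker at 0, and cartilage markers 287 to 368 and 154 to 210 RPKM. Endothelial markers (8 of 8) summed to 134 to 143 and 142 to 153 RPKM, and surface ectoderm markers (9 of 9) to 176 to 188 and 151 to 175. Macrophage markers (6 of 9 listed symbols) summed to 49.6 to 58.3 and 40.3 to 64.5 RPKM. Limb mesenchyme markers (9 of 10) summed to 359 to 379 and 362 to 390 RPKM. Of these 9, 7 lay above 0, with a median difference of 0.03. Y-linked genes were expressed in all 3 controls and in 1 of 3 Sox9cKO libraries. With sex as a term in the fit the median of the members was 0.13 and still 0 were called (0.202% of all genes). At an unadjusted p under 0.05 there were 7 members, and the share of all genes was not computed for that fit, so 7 cannot be set against a background. The part of these cell types in the member levels was not tested. Scaling the libraries by median ratios left 15 members with all Sox9cKO values above the controls (8.99% of all genes).

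**Figure D4:**
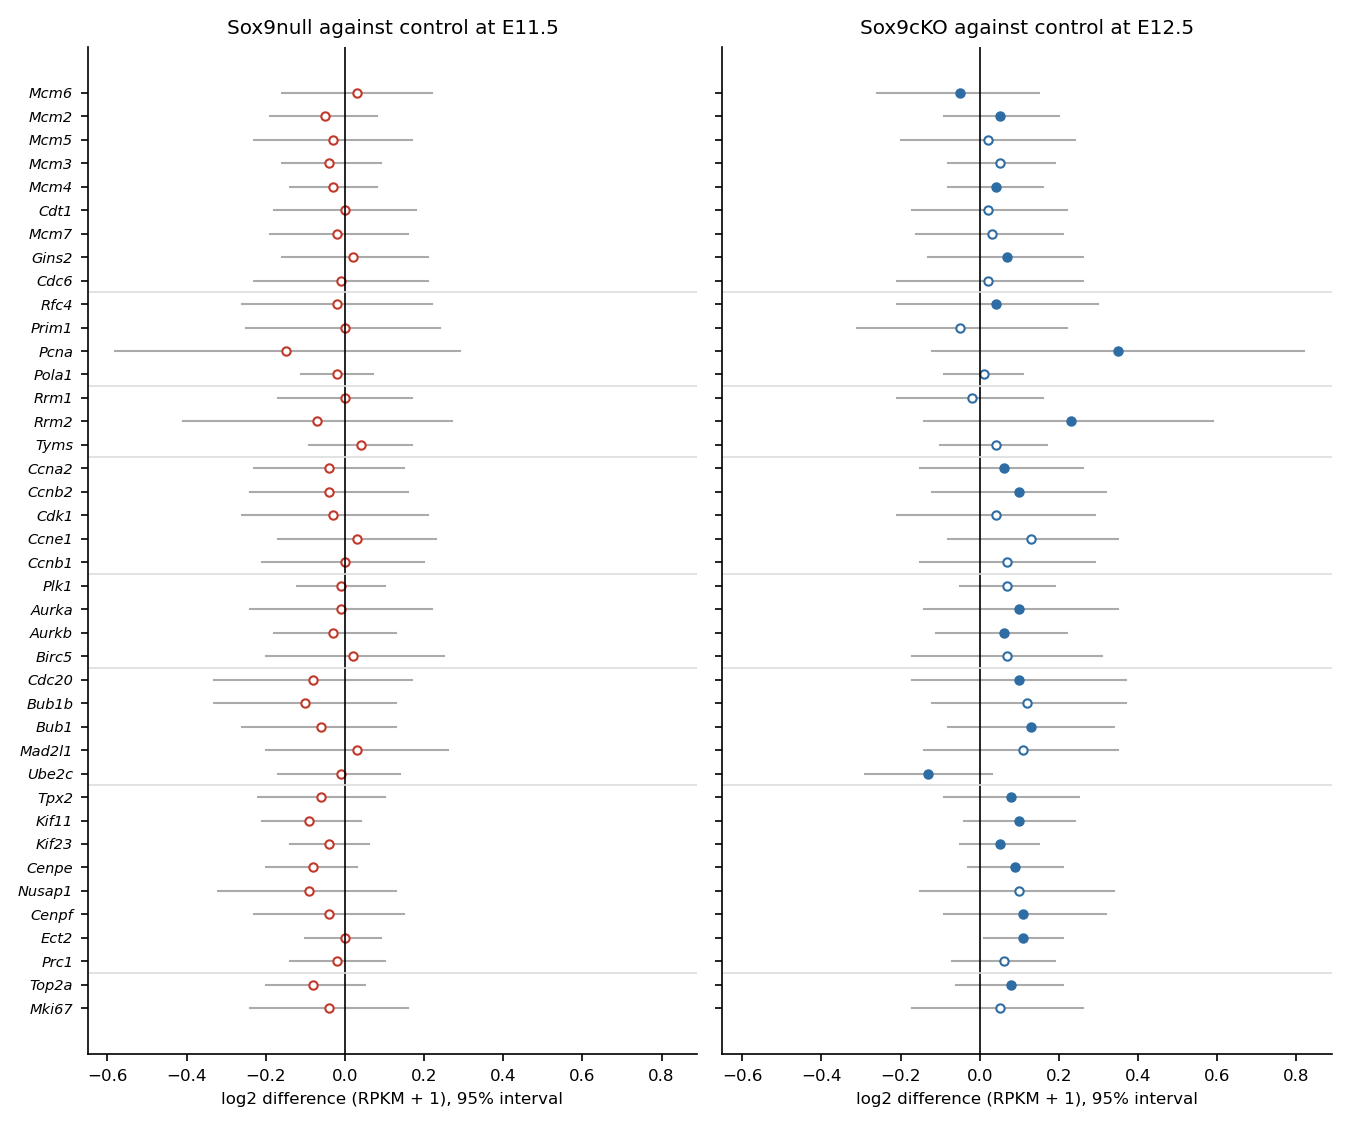
Log2 difference (x axes, RPKM + 1) of mutant against control for the 40 members (y axis, by role class) at E11.5 and E12.5, with 95% intervals from limma. Filled points mark members whose groups do not overlap, 0 at E11.5 and 21 at E12.5, of which 19 are to the right of 0.

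The difference between the Sox9 effects at the 2 ages was tested by an interaction in the same fit. No member passed in limma (0.0311% of all genes, 0.0233% higher and 0.00776% lower), and 1, Cenpe, had an unadjusted p under 0.05 (3.05% of all genes). The interaction was above 0 for 35 members, against 49.9% of all genes, with a median of 0.09 and the largest value of 0.50 for Pcna. All 9 measured limb mesenchyme markers were above 0 as well, with a median of 0.10. Above 0 were also 8 of 13 erythroid, 5 of 12 cartilage and 3 of 8 endothelial markers. For surface ectoderm, muscle and macrophage markers it was 2 of 9, 2 of 8 and 1 of 6. The part of these cell types in the member levels was not tested.

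E12.5 against E11.5 in controls compared the ages within unmutated or heterozygous limb buds. The helicase genes Mcm2, Mcm3, Mcm4 and Mcm7, and Rrm2, Plk1 and Top2a, were lower at E12.5, and no member was higher. Limma called 7 of 40 members lower, against 5.19% of all genes, and 0 higher, against 16.5% (21.7% in either direction). At an unadjusted p under 0.05 there were 12 members (36.5% of all genes). The ages differ also in the control genotype, Sox9fl/- or Sox9fl/fl, and in the library sets, so age cannot be told apart from the genotype. All 3 E12.5 controls and 1 of 3 E11.5 controls expressed Y-linked genes, and with sex as a term 13 members were called (18.9% of all genes). Cartilage markers summed to 152 to 214 RPKM at E11.5 and 287 to 368 at E12.5, and muscle markers (8 of 9) to 53.1 to 83.1 and 165 to 200 RPKM. Macrophage markers summed to 29.2 to 34.3 and 49.6 to 58.3, endothelial to 119 to 126 and 134 to 143. Surface ectoderm markers summed to 134 to 156 and 176 to 188. Erythroid markers went the other way, with 865 to 967 and 693 to 735, as did limb mesenchyme markers, with 394 to 417 and 359 to 379. No marker was at 0. Their part in the member levels was not tested.

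Top2a averaged 65.5 ± 5.17 RPKM at E11.5 and 52.5 ± 1.78 at E12.5 (SD, n = 3 each). Its log2 difference was -0.31, with SE 0.0615 and a limma adjusted p of 0.00485. It was called in each of the 23 alternatives run (adjusted p 0.000181 to 0.0304). Plk1 averaged 47.3 ± 2.07 and 39.8 ± 2.15 RPKM, with a log2 difference of -0.24 (limma adjusted p = 0.00974). Mcm2 averaged 72.8 ± 4.72 and 60 ± 1.24 RPKM, with a log2 difference of -0.27 (limma adjusted p = 0.0123). Each lost its call in 1 alternative, Plk1 without E12.5 control 1 (limma adjusted p = 0.0528) and Mcm2 without E12.5 control 3 (limma adjusted p = 0.0513).

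Mcm7, Mcm3 and Mcm4 fell by 0.31, 0.22 and 0.19 on the log2 scale (limma adjusted p = 0.0228, 0.0243 and 0.0334). Mcm5 and Mcm6, of the same ring, did not pass, with differences of -0.30 (limma adjusted p = 0.0516) and -0.05 (interval -0.25 to 0.15). Rrm2 had the largest fall, -0.51 (SE 0.168), with the weakest call (limma adjusted p = 0.0493), which held in 11 of 23 alternatives. Mcm7 and Mcm3 kept theirs in 18 and Mcm4 in 14. Each of these 4 genes lost its call without E11.5 control 1 or 3 or E12.5 control 1 or 3, with a highest limma adjusted p of 0.0873 for Mcm7, 0.093 for Mcm3, 0.116 for Mcm4 and 0.159 for Rrm2. The calls of Mcm7, Mcm4 and Rrm2 were lost without E12.5 control 2 as well, and those of Mcm4 and Rrm2 without Sox9cKO 1 or 2 and of Rrm2 without Sox9cKO 3, through the shared spread. With only the control groups in the fit, where 20.3% of all genes were called, Mcm3 and Mcm4 lost their calls too. The count of members called was 3 without E11.5 control 1 (13.8% of all genes) or 3 (19.6%) and 12 without E11.5 control 2 (17.4%). It was 2 without E12.5 control 1 (10.7%) or 3 (12.8%) and 4 without E12.5 control 2 (15.4%).

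Of the 40 members 5 were above 0 in controls, against 60.9% of all genes, and the median was -0.15 against 0.06. In 13 members each E12.5 control lay below each E11.5 control, against a background of 13.3%, and 0 lay above (32.6%). The 13 were Mcm2, Mcm3, Mcm4, Mcm5, Mcm7, Gins2, Rrm2 and Tyms among the replication genes, and Mki67, Top2a, Cdc20, Plk1 and Ect2 among the others. Class medians were -0.20 for licensing and helicase genes, -0.21 for mitotic kinases and passenger genes, -0.16 for the checkpoint and ubiquitination genes, -0.14 for cyclins with Cdk1, and -0.08 for kinetochore, motor and midzone genes. The 4 polymerase and clamp genes had a median of -0.00 and a range of -0.42 to 0.05.

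How low the E12.5 controls were depended on which E11.5 libraries they were set against. Against the set of 4 the median was -0.20 with 39 members below 0, and against control 2 of the set of 3 it was 0.03 with 17 below 0. The medians of all genes were 0.03 and 0.13. With the set of 4 alone limma called 29 members, all lower, and 43.1% of all genes in either direction. With the set of 3 alone, where the lone E11.5 control is assumed to vary like the other groups, it called 8 members lower and 5 higher, and 49.7% of all genes. The log2 difference of Top2a was -0.36 against the set of 4 and -0.21 against the set of 3. That of Mcm7 was -0.41 and -0.12, that of Rfc4 -0.15 and 0.17, and that of Mki67 -0.13 and -0.39. Both fits use the same E12.5 libraries, were chosen after the sets were seen, and take sets clustered on these genes, so shared calls are not counted as support.

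**Figure D5:**
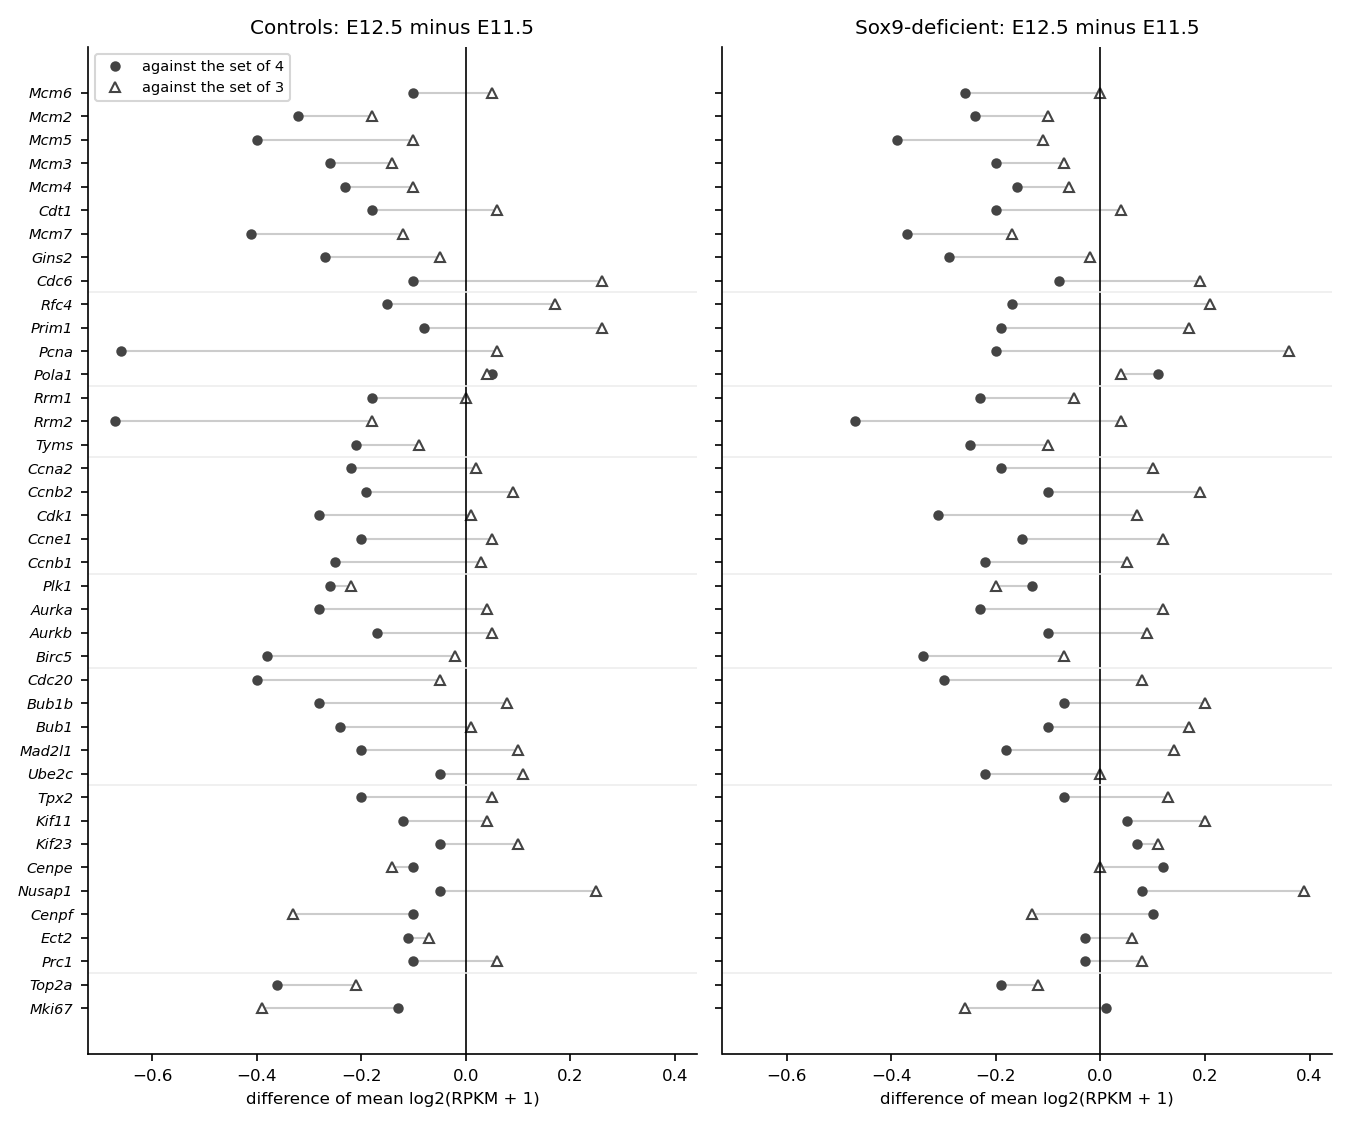
Difference of mean log2(RPKM + 1) between E12.5 and E11.5 (x axes) for the 40 members (y axis, by role class) in controls and in Sox9-deficient limb buds, against the E11.5 set of 4 (circles) and set of 3 (open triangles). In controls 39 circles and 17 triangles lie left of 0.

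In Sox9-deficient limb buds, Sox9cKO at E12.5 against Sox9null at E11.5, Mcm7 and Plk1 were lower. These 2 of 40 compare with 5.23% of all genes called lower, and 0 were higher (14.5%, or 19.7% in either direction). At an unadjusted p under 0.05 there were 8 members (36.4% of all genes). Mcm7 had 41 ± 3.78 RPKM (SD, n = 4) in Sox9null and 33.7 ± 0.325 (SD, n = 3) in Sox9cKO, with a log2 difference of -0.27, SE 0.0799 and a limma adjusted p of 0.0348. Plk1 had 47 ± 1.99 and 41.8 ± 0.975 RPKM, a difference of -0.16 (SE 0.0518, limma adjusted p = 0.044).

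Both calls in Sox9-deficient limb buds were close to the threshold. Mcm7 was called in 14 of 23 alternatives (limma adjusted p from 9.85e-05 to 0.116) and Plk1 in 11 (0.00591 to 0.153). Neither was called without Sox9cKO 1, 2 or 3, Sox9null 3, or E12.5 control 1 or 3. Mcm7 alone was called without Sox9null 1 (14.3% of all genes) or E11.5 control 3 (18.8%), and Plk1 alone without Sox9null 4 (22.1%). Without Sox9null 2 Mcm7 and Tyms were called lower (13.5% of all genes in either direction). Without Sox9null 3 only Kif11 and Nusap1 were called, both higher (22.7% in either direction). Without E11.5 control 2, 5 members were called (23.1% of all genes). Here the ages differ in the way Sox9 was removed as well, and the comparison cannot be told apart from that. From Sox9null to Sox9cKO the summed cartilage markers were 94.6 to 118 and 154 to 210 RPKM, muscle markers 58.8 to 89.8 and 120 to 173, and macrophage markers 26.9 to 39.1 and 40.3 to 64.5. Their part in the member levels was not tested.

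The median in Sox9-deficient limb buds was -0.05 against 0.06 for all genes, and 14 members were above 0 (61.7% of all genes). In 7 members each Sox9cKO library lay below each Sox9null library, against 9.75% of all genes. They were Mcm2, Mcm3, Mcm4, Mcm5, Mcm7, Plk1 and Top2a. For Kif23, a midzone kinesin, each lay above (23.7% of all genes). Limma called 23 members with the set of 4 alone, all lower, against 34.9% of all genes in either direction. With the set of 3 alone it called 16 higher and 6 lower, against 58.2% of all genes.

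In the authors' deposited table, which has 1 adjusted p per gene over the 4 groups, 7 of the 40 members were at most 0.05, against 22% of all genes. In the authors' deposited table these were Top2a (0.00973), Plk1 (0.0115), Mcm2 (0.0182), Mcm3 (0.03), Mcm4 (0.0323), Mcm7 (0.0386) and Tyms (0.0439).

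Other genes of replication were examined in the same fit. Of 44 further replication genes, all measured, 6 fell in controls and 0 rose, with a median of -0.08. Over all genes 5.19% fell, 16.5% rose and the median was 0.06, which is also the background in controls between ages for the lists that follow. Uhrf1, which keeps DNA methylation through replication, averaged 52.5 ± 3.36 RPKM at E11.5 and 37.8 ± 0.712 at E12.5 in controls (SD, n = 3 each), with a log2 difference of -0.46 (limma adjusted p = 0.000609). The others were Pole and Pold1, catalytic subunits of the replicative polymerases (-0.24 and -0.19), Tk1, thymidine kinase (-0.24), Dnmt1, the maintenance DNA methyltransferase (-0.23), and Lig1, the ligase that joins Okazaki fragments (-0.17). In Sox9-deficient limb buds, where 5.23% of all genes fell and 14.5% rose, Uhrf1, Tk1, Lig1 and Pold1 fell, by 0.35, 0.28, 0.15 and 0.15 on the log2 scale. The library sets split this list too. Its summed level was 1412 and 1391 RPKM in E11.5 controls 1 and 3 but 1214 in control 2, below the E12.5 controls at 1245 to 1288. The alternatives were not examined for single genes of this list or those that follow.

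Of 53 measured among 54 further mitosis genes, 8 fell in controls and 0 rose, with a median of -0.10. Ncapd2, a condensin subunit, and Cdca8, the passenger protein borealin, fell by 0.43 and 0.35 on the log2 scale in controls and by 0.45 and 0.23 in Sox9-deficient limb buds. Foxm1, the transcription factor of late cell cycle genes, averaged 29.6 ± 2.48 and 23.7 ± 0.772 RPKM in controls (SD, n = 3 each), and its log2 difference was -0.31 (limma adjusted p = 0.0166). The remaining 5 were Cenpa, Gtse1, Incenp, Kifc1 and Cdca2, with log2 differences of -0.28 to -0.13. Cdc25b, a phosphatase that activates CDK1, rose by 0.17 in Sox9-deficient limb buds. The summed level of this list was 1696 and 1697 RPKM in E11.5 controls 1 and 3 and 1505 in control 2. The E12.5 controls, at 1487 to 1526 RPKM, were below the former and about level with the latter.

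CDK inhibitors and genes of cell cycle exit were called only upward. Of 13 measured among 15, 6 rose in controls and 0 fell, with a median of 0.20. Gadd45b, a stress and growth arrest gene, averaged 10.2 ± 1.82 RPKM at E11.5 and 17.9 ± 1.94 at E12.5 (SD, n = 3 each), with a log2 difference of 0.77 (limma adjusted p = 0.00832). Cdkn2c, the CDK4 and CDK6 inhibitor p18, averaged 2.47 ± 0.539 and 4.86 ± 0.819 RPKM, with a log2 difference of 0.76 (limma adjusted p = 0.0235). Gadd45g, Btg2, Cdkn2d and Tob2 rose by 0.47, 0.38, 0.31 and 0.20. In Sox9-deficient limb buds Gadd45b, Btg2 and Tob2 rose, by 0.76, 0.37 and 0.21. Of 22 genes of G1 cyclins, CDKs, E2F and RB families, Rbl2, a pocket protein of resting cells, rose in controls by 0.46, and E2f4 and Ccnd3 fell by 0.19 and 0.15. In Sox9-deficient limb buds Rbl1 rose by 0.17, and Ccnd3, E2f1 and E2f4 fell by 0.18, 0.18 and 0.17.

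No gene of these 4 lists was called in the comparison of mutant and control at E11.5 or at E12.5. At E12.5, 43 of 44 further replication genes and 52 of 53 further mitosis genes lay above 0, with medians of 0.06 and 0.08, against 15 of 22 G1 genes and 4 of 13 inhibitor and exit genes. At E11.5, 15 of 44 and 15 of 53 were above 0, with medians of -0.02 for both lists. Over all genes 56.8% lay above 0 at either age in these comparisons, with a median of 0.01. The genes of a list were read in the same libraries and are not independent replicates, so these counts were not tested.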

How the data were processed

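RNA from 13 mouse limb bud libraries had been sequenced, and the table of the whole series was used. Per the labels' protocols, the extraction kit was RNeasy Mini and the library preparation a standard Illumina one. Per the submitters' processing notes, CASAVA 1.8 and mm10 were used. Aligner, counting, strand use and normalization between libraries were not given in the sources used here. Deposited by the authors were normalized RPKM values per library for 12880 genes with a group mean of at least 3, per the file headers. The authors also deposited a p-value per gene over the 4 groups, adjusted for the false discovery rate, which served only where it is named. Groups and replicate numbers came from the sample titles, and p-values measure only the spread between these libraries of 3 or 4 embryos per group.

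Library depth is unknown. Low values of 617 short genes multiplied by length fell within 0.15 of a whole multiple for only 36.2% to 47.4% of values, where 30% would without steps, so whole reads were not recovered and no count model was used.

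Values were tested as log2(RPKM + 1) with limma 3.58.1 (R 4.3.3, trend and robust) with 4 group means over the 13 libraries, two-sided, with Benjamini-Hochberg adjustment over all 12880 genes and a call at an adjusted p under 0.05. A filter of 1 RPKM in 3 libraries removed 0 genes. Fold changes on this scale understate those of low genes. The fit was tested on simulated data. Members, role classes, further lists, motifs and the naming rule were chosen with earlier results of these data known. The naming rule gave every value for Mki67, Pcna and Top2a, for the highest member of each role class, and for called members. From other lists called genes were named, at most 8 per list and comparison. Ect2, Ube2c, Cenpe, Cenpf, Kif23 and other members outside the rule were singled out after their values were seen. Coordinates are from GENCODE mouse release 21 (GRCm38, the mm10 assembly), and promoters from RefSeq GRCm38.p6, taking the first start listed. Library sets came from hierarchical clustering of the E11.5 libraries.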

Additional observations from a re-analysis of the deposited data

Results flagged for a closer look

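Kif23, the midzone kinesin, had 39.4 RPKM in Sox9null 3 at E11.5, apart from the other Sox9null libraries at 37.5 to 37.8 RPKM. The gap was 0.83 of the group's range, just over Dixon's limit for 4 values. Only groups of 4 were examined, and this was 1 of 40 members. Dixon's limit takes the 4 values as independent draws from 1 distribution, whereas these libraries come from both library sets. How often chance would pick out a member is therefore not known, and no conclusion is drawn.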

How the results depend on the processing

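The 23 alternatives changed the pseudocount, filter, scaling, model and libraries used, and those that kept 1 E11.5 library set were added after the data were seen. Both comparisons of mutant with control called 0 members in all 23, and the interaction in the 22 that apply to it, with medians of -0.10 to 0.02 at E11.5 and 0.05 to 0.13 at E12.5. The E12.5 count of members with no overlap upward was 20 to 28 with 1 library left out (14.2% to 22.4% of all genes). Between ages, controls (7 called) gave 23 with median ratio scaling (26.5% of all genes), 21 with the library set as a term (55.4%), 13 with sex as a term (18.9%), 29 with the set of 4 (43.1%), 13 with the set of 3 (49.7%), and 2 to 12 with 1 library left out. Sox9-deficient limb buds (2 called) gave 13 (22%), 20 (51.8%), 5 (20.6%), 23 (34.9%) and 22 (58.2%) in that order, 1 without trend (19.7%), 0 with only the groups compared (7.17%), and 0 to 5 with 1 library left out. With 1 library left out, 10.7% to 26.2% of all genes were called in controls and 5.5% to 23.1% in Sox9-deficient limb buds. Median ratio scaling moved the median of all genes from 0.06 to -0.01 in controls and -0.00 in Sox9-deficient limb buds. With 1 set the direction turned for several of the members whose values are all given. In controls with the set of 3 it turned for Rfc4 (0.17), Pcna (0.06), Mcm6 (0.05), Ccna2 (0.02) and Tpx2 (0.05). There 23 of 40 members lay above 0. In Sox9-deficient limb buds it turned for Rfc4 (-0.17), Pcna (-0.20), Tpx2 (-0.07) and Mki67 (0.01) with the set of 4. With the set of 3 it turned there for Ccna2 (0.10), Cdc20 (0.08) and Rrm2 (0.04), and 25 of 40 members lay above 0. Members outside the naming rule turned as well in Sox9-deficient limb buds. Among them were Aurka (0.12), Mad2l1 (0.14) and Prim1 (0.17) with the set of 3 and Ccnb2 (-0.10) with the set of 4. The cause was not tested. Library depth is unknown, so its limit on small differences could not be given.

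Deviations from the group mean were correlated between control and mutant libraries of the same replicate number. The correlations ran from -0.435 to 0.635 at E11.5 and -0.117 to 0.169 at E12.5. At E11.5 numbers 2 and 3, whose libraries share a set, gave 0.635 and 0.441, and number 1, whose libraries do not, gave -0.435. These values follow the sets, so they cannot decide whether the numbers mark pairs at E11.5. With the replicate number as a block, 1 member was called between ages in Sox9-deficient limb buds (18.9% of all genes). In controls Mcm4 and Rrm2 lost their calls (limma adjusted p = 0.0525 and 0.0513), where 20.2% of all genes were called.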
